A study of Mus musculus with 6 samples.

Results

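The 10 genes studied here belong to the axis that leads from interleukin 12 (IL-12) and interleukin 18 (IL-18) to interferon gamma, and were measured in natural killer (NK) cells of the mouse spleen. They were chosen by symbol among the 55291 gene names of the count table, and all 10 were found and passed the filter on low counts, which left 16480 genes tested. They are the IL-12 receptor genes Il12rb1 and Il12rb2, the IL-18 receptor genes Il18r1 and Il18rap, the signal genes Stat4, Tyk2 and Myd88, the product gene Ifng, and the interferon gamma receptor genes Ifngr1 and Ifngr2. The study compared 3 mice that carry alanine in place of serines 303 and 307 of heat shock factor 1 (HSF1; the S303/7A group, replicates 5, 6 and 7) with 3 mice that are wild type for HSF1 (the WT group, replicates 1, 2 and 3). All were at steady state, with no cytokine or other agent given. CD49b-positive, CD3e-negative cells were sorted after bead enrichment, each mouse gave 1 library, and SMART-seq HT was the library kit. HSF1 is the transcription factor that drives heat shock genes, and phosphorylation of these serines is known to hold it back. The mutation is carried by the whole animal and not by NK cells alone. The sources used here do not give age, sex, strain or the number of mutant copies.

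IL-12 and IL-18 come mainly from dendritic cells and macrophages. IL-12 binds a receptor made of the chains encoded by Il12rb1 and Il12rb2, with which the kinases TYK2 and JAK2 associate, and these activate STAT4. IL-18 binds the chain encoded by Il18r1, the chain encoded by Il18rap joins it, and the adaptor MYD88 carries the signal to NF-kB and p38. Both signals together are among the strongest inducers of Ifng in NK cells, which keep Ifng transcripts at rest. Interferon gamma then acts through a receptor in which IFNGR1 binds the ligand and IFNGR2 is needed for the signal.

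Total counts were 43189163 to 47248039 in S303/7A and 53845572 to 72736406 in WT, so depth differed with genotype. The defining NK markers were present: 12 of 12 markers were detected, with summed levels of 20504 to 22081 CPM (counts scaled to the size of the library) in S303/7A and 19478 to 23866 CPM in WT. Of these 12, 6 had a log2 fold of S303/7A over WT below 0. Klrb1c was lower, at 1690 ± 58.5 CPM in S303/7A and 2463 ± 204 CPM in WT (SD, n = 3 each). It was the only NK marker to pass edgeR's quasi-likelihood test (adjusted p = 0.0454). Klrk1 was higher, at 2119 ± 236 CPM in S303/7A and 1432 ± 66.2 CPM in WT, and did not pass (adjusted p = 0.0700). Basophil and platelet markers, from cells that also carry CD49b, were lower in S303/7A: 10 basophil markers summed to 268 to 363 CPM in S303/7A and 473 to 802 CPM in WT, and 9 platelet markers to 111 to 154 CPM in S303/7A and 240.1 to 265 CPM in WT. None of these was at 0 over a group. Log2 folds of S303/7A over WT were below 0 for 9 of 9 tested basophil markers and 8 of 8 tested platelet markers. In each of these lists 1 gene passed edgeR's quasi-likelihood test, as 0.364% of all genes did. These were Ms4a2 of the basophil list (log2 fold -0.86 ± 0.12, SE) and Vwf of the platelet list (-1.25 ± 0.17). The adjusted p was 0.0470 for each. Summed dendritic cell markers (8 genes) were 352 to 530.1 CPM in S303/7A and 586 to 798 CPM in WT, but most of that sum was Itgax (335 ± 112 CPM in S303/7A and 611 ± 101 CPM in WT; SD, n = 3 each), and 3 of 6 tested genes of the list were below 0, with a median log2 fold near 0 (0.0047). Summed neutrophil markers (8 genes) were 27.8 to 29.4 CPM in S303/7A and 42.8 to 52.2 CPM in WT, of which nearly all was Cxcr2 (25.9 ± 4.39 CPM in S303/7A and 46.2 ± 5.26 CPM in WT). Of the 3 neutrophil markers tested, Cxcr2 was the 1 below 0, the median log2 fold was 0.86, and Ltf was at 0 in WT. Summed innate lymphoid cell markers (7 genes) were 446 to 499 CPM in S303/7A and 327 to 427 CPM in WT, with 2 of 7 tested genes below 0. The summed levels of T cell, B cell and monocyte lists overlapped. The part of other cells in the results was not tested. Of all genes, 60 of 16480 (0.364%) were called, that is, had an adjusted p under 0.05 in edgeR's quasi-likelihood test. Hsf1 itself, at 42.2 to 76.9 CPM in S303/7A and 83.2 to 108 CPM in WT, did not overlap between genotypes. Of all genes, 8.37% were lower without overlap. Hsf1 was not called (adjusted p = 0.386 in edgeR), and since the mutation changes codons, its level does not check the labels. Of the 60, 22 were higher (0.133%) and 38 lower (0.231%) in S303/7A.

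Promoter windows, the 250 bases before the RefSeq start on GRCm38.p6 in the direction of the gene, are shown for the product gene and for the 2 genes whose unadjusted p was smallest, because the mutated factor and the STAT factors of this axis act on DNA. Capitals mark TTCNNNGAA, the core of the interferon gamma activated site that STAT dimers can bind, which the window of Ifngr2 lacks. Ifngr2 lies at chr16:91546809-91547058 on the plus strand, Myd88 at chr9:119340019-119340268 on the minus strand (before a start that lies inside the GENCODE span of the gene) and Ifng at chr10:118440796-118441045 on the plus strand.
Ifngr2: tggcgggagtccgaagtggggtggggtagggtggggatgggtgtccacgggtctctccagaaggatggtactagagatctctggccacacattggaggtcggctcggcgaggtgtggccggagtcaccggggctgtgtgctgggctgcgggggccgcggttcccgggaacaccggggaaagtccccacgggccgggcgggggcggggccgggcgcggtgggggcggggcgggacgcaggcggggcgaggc
Myd88: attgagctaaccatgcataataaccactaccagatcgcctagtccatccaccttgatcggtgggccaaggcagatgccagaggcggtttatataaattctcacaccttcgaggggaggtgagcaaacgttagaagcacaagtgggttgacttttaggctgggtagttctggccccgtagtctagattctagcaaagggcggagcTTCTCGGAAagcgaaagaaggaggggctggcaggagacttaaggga
Ifng: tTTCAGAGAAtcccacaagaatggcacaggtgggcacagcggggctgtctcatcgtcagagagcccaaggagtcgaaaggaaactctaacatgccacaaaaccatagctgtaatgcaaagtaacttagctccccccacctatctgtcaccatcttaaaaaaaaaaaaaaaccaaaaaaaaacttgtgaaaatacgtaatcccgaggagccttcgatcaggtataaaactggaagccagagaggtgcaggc

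RefSeq's table had windows for 9 of the 10 genes, 12 windows in all. TTCNNNGAA was found in 4 of the 12 windows, those of Ifng, Myd88, Il12rb2 and 1 of those of Il18r1, against 7.02% of 32851 windows of all genes. Il18r1 and Stat4 had more than 1 window each, with overlap among those of Il18r1, so the 12 are not separate promoters. The Il18r1 window with the match (chr1:40465756-40466005) lies inside the GENCODE span of the gene. So does the Stat4 window at chr1:52007990-52008239. The full heat shock element, in which GAA and TTC units alternate with 2 bases between them over 3 units, was in 0 of the 12 windows, against 0.466% of all windows. Its shorter pair, GAANNTTC or TTCNNGAA, was in both windows of Stat4 and in none of the other 10, against 12.8% of all windows. Both strands were covered, since each motif equals its own reverse complement or was searched with it. The full element contains the shorter pair, so their counts overlap. A match is only a run of letters, and no match says only that these letters are not in this window.

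None of the 10 genes was called in S303/7A against WT (0 of 10, against 0.364% of all genes tested). In edgeR's quasi-likelihood test their adjusted p ranged from 0.282 to 0.930. Unadjusted p was under 0.05 for 3 of them, Ifngr2, Myd88 and Ifngr1, against 9.68% of all genes. Limma-voom called 0 of the 10 and DESeq2 called 1, Ifngr2 (adjusted p = 0.0327), where it called 2.65% of all genes. Log2 folds of S303/7A over WT were above 0 for 6 genes and below 0 for 4, with a median of 0.06, beside 0.01 over all genes tested. For 9 of the 10 the log2 fold lay within 0.3 of 0. The libraries of the genotypes did not overlap for 1 gene that was higher in S303/7A (Myd88, against 7.64% of all genes) and for 2 that were lower (Ifngr2 and Ifng, against 8.37%).

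**Figure D1:**
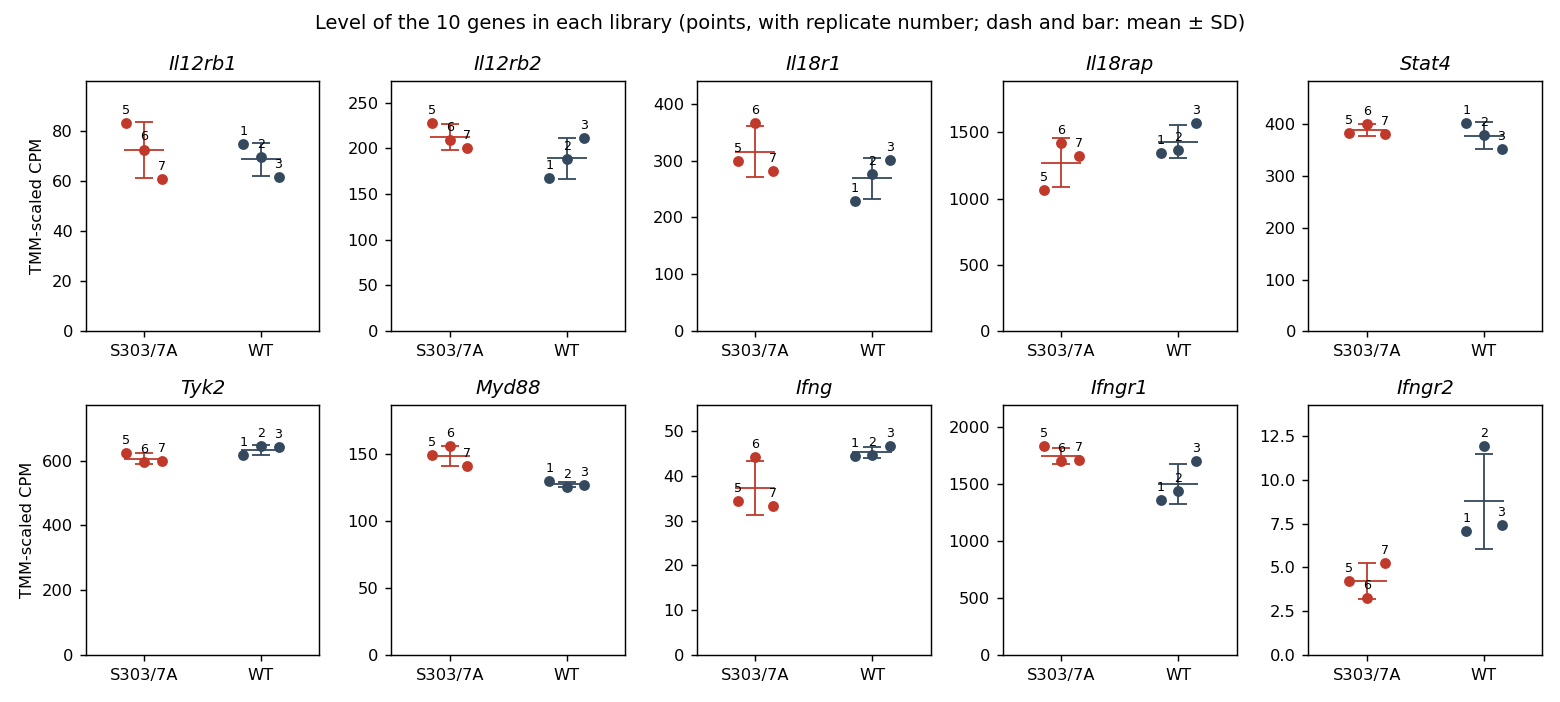
TMM-scaled CPM (vertical axes, each from 0) of the 10 genes in 3 S303/7A and 3 WT libraries; points are libraries with their replicate number, dashes and bars the mean ± SD. The groups separate for Ifngr2, Myd88 and Ifng and overlap for the other 7 genes.

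Among the IL-12 receptor genes, Il12rb1 (chromosome 8, 70808449 to 70821424, GRCm38), whose product is shared with the IL-23 receptor, had 83.3, 72.6 and 61.0 CPM in S303/7A 5, 6 and 7, against 74.8, 69.7 and 61.7 CPM in WT 1, 2 and 3. The ranges overlapped throughout, and the spread within each genotype was wider than the difference between them. The log2 fold was 0.07 ± 0.13 (SE, n = 3 each), with a 95% interval from -0.24 to 0.39 and an adjusted p of 0.930. Without S303/7A 5, its highest library, the log2 fold was -0.04. Il12rb2 (chromosome 6, 67291318 to 67376188), the chain that docks STAT4, had 228, 209.5 and 200.1 CPM in S303/7A, against 167, 188 and 211 CPM in WT. Only WT 3 reached into the S303/7A range. Its log2 fold was 0.17 ± 0.10 (SE), with an interval from -0.07 to 0.40 and an adjusted p of 0.673. Serbp1 on the opposite strand shares 1519 of the 3794 exon bases of Il12rb2 (40.0%), and the sources used here do not say whether counting used strand, so the level of Il12rb2 is uncertain to that extent. Serbp1 itself had a log2 fold of 0.03 ± 0.07 (SE).

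The IL-18 receptor genes lie next to each other on chromosome 1, among other genes of the IL-1 receptor family. Il18r1 (40465552 to 40500854), the chain that binds IL-18, had 299, 366 and 282 CPM in S303/7A, against 229.6, 276 and 301 CPM in WT. The genotypes overlapped, with S303/7A 6 above every other library. The log2 fold was 0.23 ± 0.13 (SE), with an interval from -0.08 to 0.54 and an adjusted p of 0.658. Il18rap (40515362 to 40551705), the accessory chain, had 1065, 1421 and 1322 CPM in S303/7A, against 1347, 1364 and 1572 CPM in WT. Here S303/7A 5 was the lowest library and WT 3 the highest. Its log2 fold was -0.17 ± 0.12 (SE), with an interval from -0.44 to 0.10 and an adjusted p of 0.740.

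Of the signal genes, Stat4 (chromosome 1, 51987148 to 52107189) and Tyk2 (chromosome 9, 21104068 to 21131243) encode a transcription factor and a kinase of the IL-12 signal. Their coefficients of variation were 2.80% and 2.69% between the S303/7A libraries. Between the WT libraries these were 6.83% for Stat4 and 2.41% for Tyk2. Stat4 had 384, 402 and 382 CPM in S303/7A, against 403, 380.1 and 352 CPM in WT, a log2 fold of 0.04 ± 0.07 (SE) with an interval from -0.12 to 0.20. The genotypes overlapped, and without WT 3 the log2 fold was -0.01. Tyk2 had 625, 596 and 598 CPM in S303/7A, against 616, 644 and 641 CPM in WT, a log2 fold of -0.06 ± 0.05 (SE) with an interval from -0.19 to 0.06. Adjusted p was 0.925 for Stat4 and 0.794 for Tyk2. The bound farthest from 0 in either interval was 0.20, so larger differences on the log2 scale lay outside both. Gm28177 on the same strand shares 1033 of the 3872 exon bases of Stat4 (26.7%), with 86 counts over the 6 libraries. For Tyk2 the share with 1700084C06Rik on the opposite strand is 8.07%, with 10 counts. The levels of both genes are uncertain to that extent.

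Myd88 (chromosome 9, 119335934 to 119341411), the adaptor of the IL-18 and IL-1 receptors and of most Toll-like receptors, had 149, 155 and 141 CPM in S303/7A, against 129, 125 and 127 CPM in WT. Every S303/7A library was above every WT library, and the spread within WT was small, at 2.07 CPM (SD). The log2 fold was 0.22 ± 0.07 (SE), with an interval from 0.06 to 0.38. It did not pass the test, with an unadjusted p of 0.0127 and an adjusted p of 0.345. Acaa1a on the opposite strand shares 290 of 2576 exon bases with Myd88 (11.3%), and had a log2 fold of 0.02 ± 0.07 (SE).

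Ifng (chromosome 10, 118441046 to 118445892) had 34.4, 44.1 and 33.2 CPM in S303/7A, against 44.5, 44.6 and 46.6 CPM in WT. The WT libraries lay close together and S303/7A 6 was just below them, while S303/7A 5 and 7 were lower. The means were 37.2 ± 5.98 CPM in S303/7A and 45.2 ± 1.17 CPM in WT (SD, n = 3 each). The log2 fold was -0.28 ± 0.13 (SE), with an interval from -0.59 to 0.03, and the adjusted p was 0.563. Without S303/7A 6 the log2 fold was -0.42, with an adjusted p of 0.271, the lowest over the 12 alternatives, whose highest was 0.813. Gm49751, an annotated transcript of unknown kind, lies inside the span of Ifng on the same strand. It shares 336 of the 1295 exon bases of Ifng (25.9%). The sources used here do not say how reads on shared bases were counted. Part of the reads of Ifng may stand under that name or have been left uncounted. Gm49751 had 6.53, 3.80 and 3.83 CPM in S303/7A, against 7.72, 13.97 and 8.39 CPM in WT. It was not called either (log2 fold -1.09 ± 0.33, SE, adjusted p = 0.338). The long noncoding RNA gene Ifngas1, downstream of Ifng, had a log2 fold of -0.20 ± 0.25 (SE, adjusted p = 0.891).

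The pattern of Ifng over the 6 libraries was closest to those of Zfp113, Prdm2 and D1Ertd622e among 8565 other genes with a mean of at least 10 CPM. Likeness was the root mean square distance between log2 CPM values centred on each gene's own mean, which was 0.0316, 0.0515 and 0.0561 for these 3 genes, beside a median of 0.236 over the genes compared. Each had its lowest values in S303/7A 5 and 7, and none was called.

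The interferon gamma receptor genes were at opposite ends of the group. Ifngr1 (chromosome 10, 19591949 to 19610229), which encodes the chain that binds the ligand, had 1826, 1694 and 1708 CPM in S303/7A, against 1355, 1439 and 1695 CPM in WT. The genotypes overlapped only because WT 3 was just above S303/7A 6. The log2 fold was 0.22 ± 0.09 (SE), with an interval from 0.01 to 0.43, an unadjusted p of 0.0422 and an adjusted p of 0.498. Ifngr2 (chromosome 16, 91547072 to 91565623), which encodes the chain needed for the signal, had 4.20, 3.22 and 5.25 CPM in S303/7A, against 7.05, 11.9 and 7.40 CPM in WT. Every S303/7A library was below every WT library, and WT 2 stood above the rest. The counts behind these values were 180, 139 and 245 in S303/7A and 445, 648 and 544 in WT. Ifngr2 had the widest difference of the 10, a log2 fold of -1.06 ± 0.29 (SE) with an interval from -1.74 to -0.38, and did not pass edgeR's test (unadjusted p = 0.00773, adjusted p = 0.282). It was called in DESeq2 alone among the 12 alternatives, over which the adjusted p ranged from 0.0327 to 0.640. Without WT 2 the log2 fold was -0.78 and the adjusted p 0.640.

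Summed basophil markers stood in the same order as Ifngr2 over the 6 libraries, highest in WT 2 and lowest in S303/7A 6. They had 299, 268 and 363 CPM in S303/7A 5, 6 and 7, against 473, 802 and 604 CPM in WT 1, 2 and 3. This order was not particular to basophils. Summed neutrophil markers, nearly all Cxcr2, followed it too, at 28.5, 27.8 and 29.4 CPM in S303/7A, against 42.8, 52.2 and 46.3 CPM in WT. Summed platelet markers did not, with 265, 261 and 240.1 CPM in WT 1, 2 and 3. The part of these cells in the difference was not tested. In a bulk sample, fewer cells of a type and less RNA per cell cannot be told apart. Genes close to Ifngr2, which encode chains of the interferon alpha and beta receptor and the IL-10 receptor, had smaller folds: -0.06 ± 0.06 for Ifnar1, -0.09 ± 0.11 for Ifnar2 and 0.05 ± 0.07 for Il10rb (log2, SE). Within 1 Mb of the 10 genes, 12 to 78 genes were tested at each, and 0 were called.

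**Figure D2:**
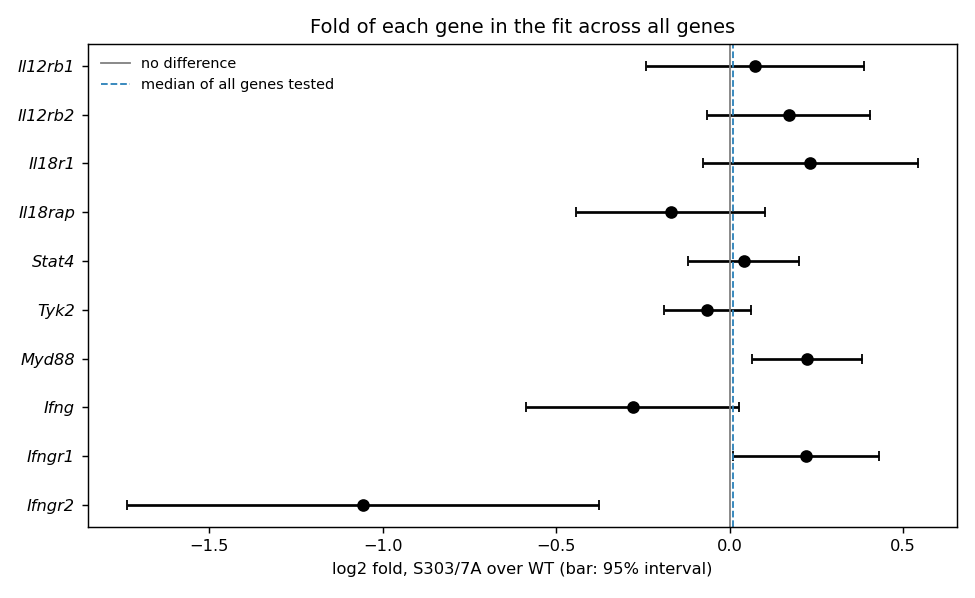
Log2 fold of S303/7A over WT for the 10 genes (horizontal axis; points are fitted folds, bars 95% intervals), with the median of all genes tested as a dashed line. The intervals of Ifngr2, Myd88 and Ifngr1 leave out 0, none of the 3 passed after adjustment, and Ifngr2 has the widest interval.

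Levels were compared between genes per kb of merged exons. Ifngr1 was highest, at 612 ± 25.4 CPM per kb in S303/7A and 526 ± 62.3 CPM per kb in WT (SD, n = 3 each), and Ifngr2 lowest, at 1.12 ± 0.268 CPM per kb in S303/7A and 2.33 ± 0.720 CPM per kb in WT. Ifngr1 stood at the 99.7th percentile of 16117 tested genes with a known length, Il18rap at the 98.9th and Ifngr2 at the 39.4th. Il18rap came second, at 188 ± 27.2 CPM per kb in S303/7A and 211 ± 18.5 CPM per kb in WT. Ifng, at 28.8 ± 4.62 CPM per kb in S303/7A and 34.9 ± 0.901 CPM per kb in WT, was eighth in both genotypes, at the 88.9th percentile. Il12rb1 followed it, at 17.6 ± 2.72 CPM per kb in S303/7A and 16.7 ± 1.61 CPM per kb in WT. The order was the same in both genotypes except that Il12rb2 and Myd88, whose ranges overlapped in each, changed places. Ranges of neighbours also overlapped for Il18r1 with Myd88 in S303/7A, and for Il18r1 with Il12rb2 and Stat4 with Tyk2 in WT. These lengths take in exon bases shared with other genes, and the order depends on that. Per kb of unshared exon bases, Il12rb2 had 93.4 ± 6.23 CPM in S303/7A and 83.0 ± 9.70 CPM in WT (SD). Its means were then above those of Il18r1 (65.6 in S303/7A and 55.8 in WT) and Myd88 (64.9 in S303/7A and 55.6 in WT).

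**Figure D3:**
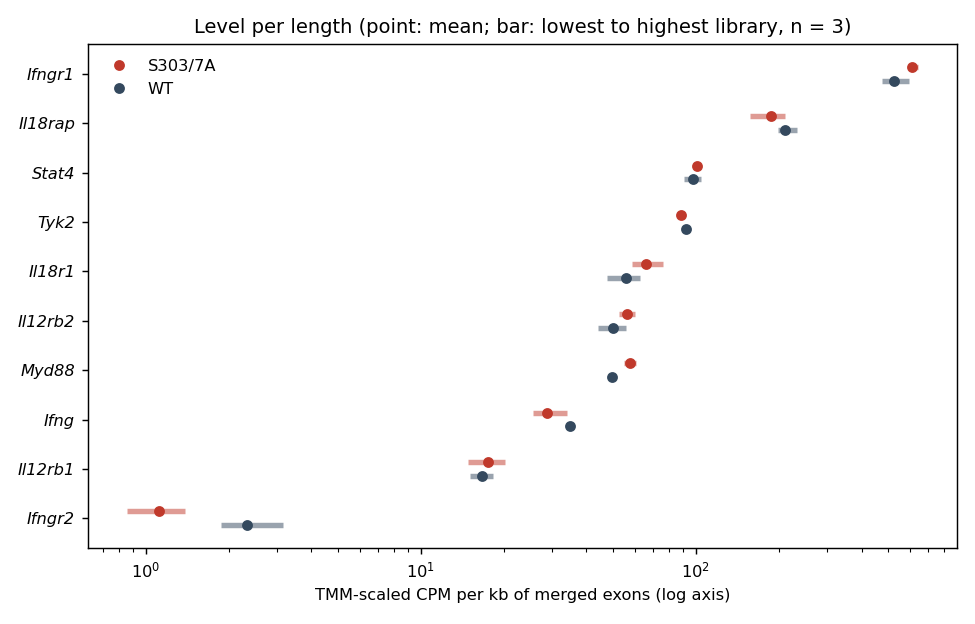
Level per length of the 10 genes (horizontal log axis, TMM-scaled CPM per kb of merged exons; points are means, bars run from the lowest to the highest of 3 libraries). Ifngr1 is above every other gene and Ifngr2 below every other gene in both genotypes.

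Since each receptor needs both of its chains, the ratio of the chains per kb was taken within each library, which leaves out the scaling between libraries. Ifngr1 over Ifngr2 was 575, 695 and 431 in S303/7A 5, 6 and 7, against 254, 159.8 and 303 in WT 1, 2 and 3. Il18rap over Il18r1 was 2.54, 2.77 and 3.34 in S303/7A, against 4.19, 3.53 and 3.72 in WT. For both pairs the genotypes did not overlap, with the interferon gamma receptor ratio higher and the IL-18 receptor ratio lower in S303/7A. How often ratios of other gene pairs separate was not counted, and single genes separated for 16.0% of those tested. The interferon gamma receptor ratio takes in the lower level of Ifngr2 given above and is not a separate result. Il12rb2 over Il12rb1 was 2.96, 3.12 and 3.55 in S303/7A, against 2.42, 2.92 and 3.71 in WT, which overlapped. The size of this ratio depends on how the exon bases that Il12rb2 shares with Serbp1 are treated. In a 2-sided exact permutation test of the log2 ratios, p was 0.1 for the first pair and for the IL-18 receptor pair, the smallest that 3 against 3 allows, and 0.6 for the IL-12 receptor pair. Adjusted over the 3 ratios these were 0.15, 0.15 and 0.6. With 3 libraries a genotype no ratio could reach 0.05, so the test cannot call a difference here.

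**Figure D4:**
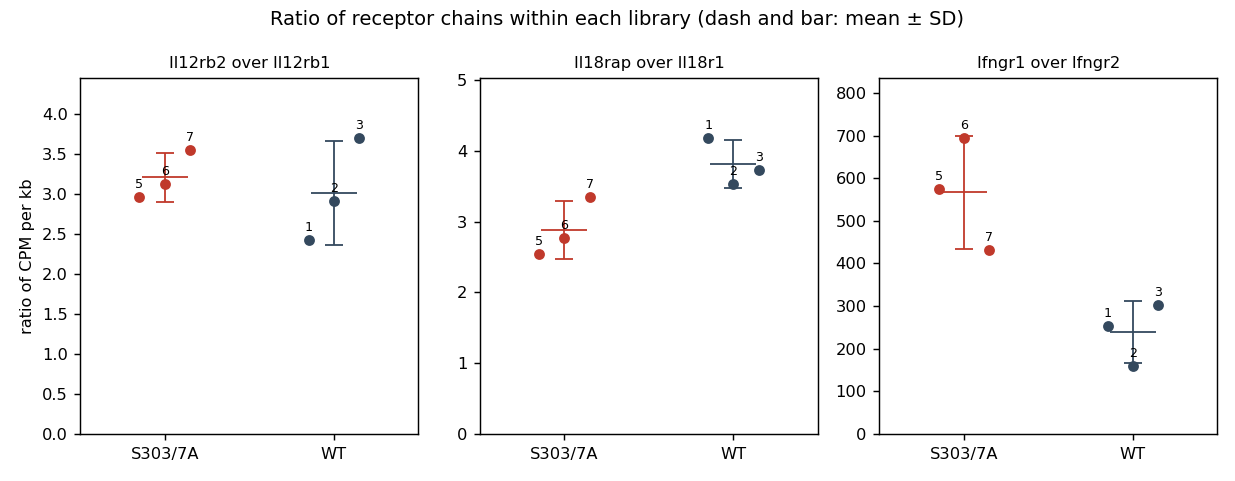
Ratio of the levels per kb of the chains of each receptor (vertical axes from 0) in S303/7A and WT libraries; points are libraries with their replicate number, dashes and bars the mean ± SD. The ratio Ifngr1 over Ifngr2 is higher, and Il18rap over Il18r1 lower, in S303/7A, with no library of 1 genotype inside the range of the other. The share of other gene pairs that separate was not counted.

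Around the 10 genes, 7 lists of 104 further genes of the pathway were read from the same fit, with 95 genes tested and 1 called, against 0.364% of all genes. The counts of unadjusted p under 0.05 in these lists stand against 9.68% of all genes. That gene was Il15, the cytokine NK cells need to survive, in the list of cytokines, which was higher in S303/7A (15.7 ± 0.471 CPM) than in WT (3.93 ± 1.33 CPM; SD, n = 3 each), with a log2 fold of 2.00 ± 0.26 (SE) and an adjusted p of 0.0453. The call was made in 1 of 6 fits that left out a library, the one without WT 3, and was lost without WT 1, WT 2 or S303/7A 5, 6 or 7 (adjusted p from 0.0679 to 0.207), with log2 folds of 1.79 to 2.01 in those 5 fits. The median log2 fold of the 6 tested genes of that list was 0.13. Transcripts of the cytokines that start the axis were scarce. Il12a ranged from 0.373 to 0.492 CPM in S303/7A and from 0.599 to 1.21 CPM in WT. Il18 ranged from 1.16 to 1.52 CPM in S303/7A and from 0.396 to 2.04 CPM in WT. Il12b had 0 counts over S303/7A and 19 over WT, nearly all of them in WT 2. Its levels were 0, 0.331 and 0.0136 CPM in WT 1, 2 and 3. Il12a (log2 fold -0.90 ± 0.46, SE) and Ebi3 (-1.44 ± 0.59), a subunit of IL-27 and IL-35, were not called.

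Of 7 tested genes of receptor kin, edgeR called 0, and unadjusted p was under 0.05 for 2. The median log2 fold was -0.11, beside 0.01 over all genes, and -0.32 without the filter on low counts. Il27ra, the IL-27 receptor, had 192 ± 17.3 CPM in S303/7A and 262 ± 61.6 CPM in WT. Il1rl1, the IL-33 receptor, which basophils carry, had 5.44 ± 1.04 CPM in S303/7A and 8.40 ± 0.917 CPM in WT. It did not overlap between genotypes, as 8.37% of all genes were lower without overlap. Il6st had a log2 fold of 0.24 ± 0.17 (SE).

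In the list of IL-12 signal genes edgeR called 0 of 9 and unadjusted p was under 0.05 for 0, with a median of 0.04. Jak1 (0.07 ± 0.06), Stat3 (0.06 ± 0.06) and Ptpn6 (-0.15 ± 0.12; log2 fold, SE) had the smallest p. In the list of IL-18 signal genes below MYD88, edgeR called 0 of 19 and unadjusted p was under 0.05 for 2, both lower, with a median of 0.02. These are inhibitors of the signal: Tnfaip3, which encodes the deubiquitinase A20, and Irak3, which encodes a kinase-like brake on MYD88. Tollip of this list and Sigirr of the receptor kin, also inhibitors, had log2 folds of 0.01 ± 0.06 and -0.04 ± 0.06 (SE). Tnfaip3 had 113, 109 and 126 CPM in S303/7A, against 187, 182 and 146 CPM in WT. Irak3 had 9.84, 8.72 and 15.2 CPM in S303/7A, against 19.6, 25.8 and 20.0 CPM in WT. Neither overlapped between genotypes, but both were named for their small p, and 8.37% of all genes were lower without overlap. Tnfaip3 and Irak3 had log2 folds of -0.56 ± 0.11 and -0.95 ± 0.24 (SE), and edgeR gave adjusted p values of 0.136 and 0.240 for them. In DESeq2 both passed (adjusted p 0.00121 for Tnfaip3 and 0.00670 for Irak3), and without a filter on low counts Tnfaip3 passed too (0.0379). Over the 12 alternatives the highest adjusted p was 0.471 for Tnfaip3 and 0.608 for Irak3. Irak3 followed the same order over the 6 libraries as Ifngr2, the summed basophil markers and the summed neutrophil markers. The part of those cells was not tested. Map2k3, a kinase above p38, had a log2 fold of 0.13 ± 0.06 (SE).

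Among factors that act on the Ifng gene or its mRNA, edgeR called 0 of 17 and unadjusted p was under 0.05 for 0, with a median of 0.03. Tbx21, which encodes T-bet, had a log2 fold of 0.14 ± 0.08, Hlx of -0.70 ± 0.31 and Zfp36l1, an mRNA decay factor, of -0.13 ± 0.08 (SE). Some members of the last 2 lists, named after their values were seen, stood apart in 1 library: S303/7A 7 had 717 CPM of Eomes, 233 CPM of Mapk14 and 177 CPM of Zfp36l2, against 140.0 to 180.5, 49.0 to 64.2 and 28.2 to 48.5 CPM in S303/7A 5 and 6, and 148 to 476, 53.3 to 91.6 and 39.2 to 54.5 CPM in WT. Without S303/7A 7 the median turned to -0.15 for the IL-18 signal list and to -0.09 for the factors. Among the 10 genes of the axis, S303/7A 7 was the highest of the 3 S303/7A libraries only for Ifngr2.

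Of 9 tested other products that IL-12 with IL-18 raises in NK cells, edgeR called 0 and unadjusted p was under 0.05 for 2, with a median of -0.02. The chemokine genes Ccl3 (-0.59 ± 0.22) and Ccl4 (-0.42 ± 0.18) were those 2, and the activation marker gene Cd69 had 0.71 ± 0.31 (log2 fold, SE). Ccl3 had 114, 133 and 115 CPM in S303/7A, against 147, 252 and 145 CPM in WT, highest in WT 2. In the interferon gamma response list edgeR called 0 of 29 and unadjusted p was under 0.05 for 7, 6 higher and 1 lower, with a median of 0.06. The guanylate-binding protein gene Gbp7 had 285 ± 14.4 CPM in S303/7A and 242 ± 7.91 CPM in WT, and the GTPase gene Tgtp2 had 36.5 ± 1.84 CPM in S303/7A and 25.4 ± 4.36 CPM in WT (SD, n = 3 each). Irf8, a transcription factor gene, had 847 ± 136 CPM in S303/7A and 1169 ± 195 CPM in WT. These 3 did not overlap between genotypes, and their adjusted p ranged from 0.284 to 0.380 in edgeR. They were named for the smallest p of the list, which favours such genes. Of all genes, 7.64% were higher and 8.37% lower without overlap. Tgtp2 passed in DESeq2 (adjusted p 0.0367, the lowest of 12 alternatives, whose highest was 0.663). Among the listed genes DESeq2 made no further call beside Il15, Tnfaip3, Irak3 and Tgtp2, against 2.65% of all genes, and limma-voom none beside Il15.

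**Figure D5:**
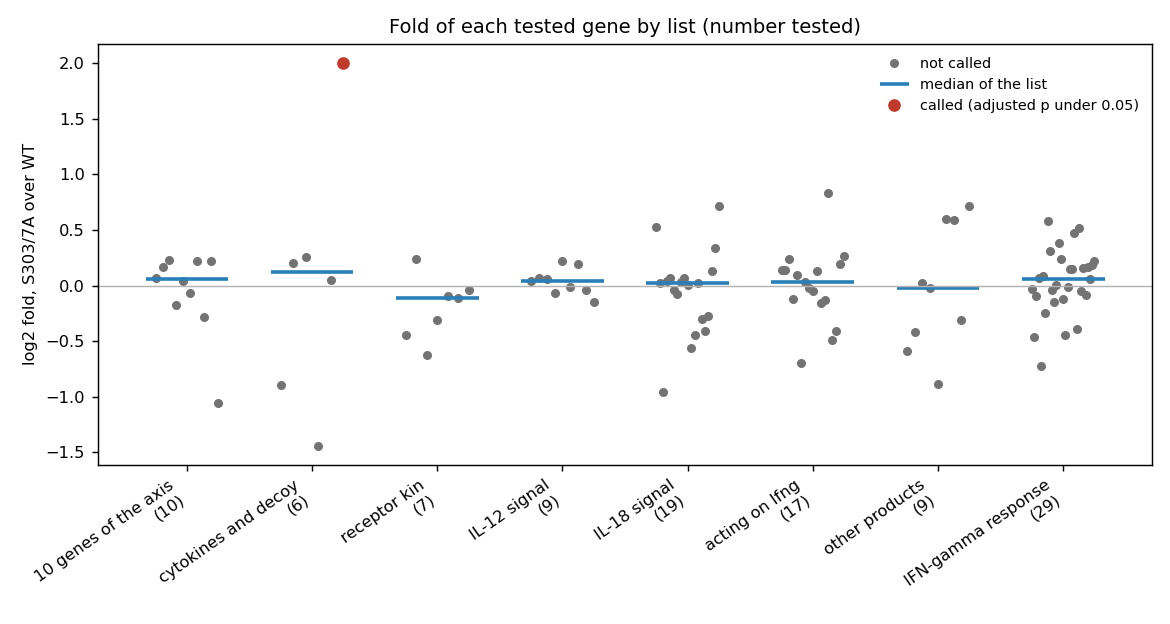
Log2 fold of S303/7A over WT (vertical axis) of each tested gene in the group of 10 and in the 7 further lists; short lines are list medians, and the red point is the called gene. List medians lie between -0.11 and 0.13, and the called gene is Il15.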

How the data were processed

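RNA of sorted splenic NK cells was measured in 6 libraries, 3 of S303/7A and 3 of WT mice. The submitters' processing notes name featureCounts, STAR, Trimmomatic and DESeq2, on build GRCm38 (mm10). The sources used here give no versions, annotation release or strand setting. Raw counts per gene name, as the authors deposited them, were the only values read; the scaled table deposited beside them was not used. Genes passed filterByExpr (minimum count 10, minimum total 15), were scaled by TMM and tested with edgeR 4.0.16 in R 4.3.3 (quasi-likelihood, S303/7A against WT, no covariate), with Benjamini-Hochberg adjustment over 16480 genes and a threshold of 0.05. SE and 95% intervals come from the quasi-likelihood F. The test was checked on simulated counts. CPM are TMM-scaled. Exon lengths and positions are from GENCODE M21, promoters from RefSeq, both on GRCm38. Each mouse gave 1 library, so p-values rest on 3 mice a genotype; library pairs within a genotype differed by more than counting noise (chi-square per gene 30.0 to 97.3). Intervals of folds cover spread between libraries. The 10 genes, the lists and the chain ratios were chosen with earlier results of these data known. Named were the 10 genes, called genes of each list or else the 3 of smallest p, and the 3 genes most like Ifng; others were chosen after their values were seen. Alternatives were DESeq2 1.42.0, limma-voom (limma 3.58.1), median-of-ratios factors, library totals, no filter, thinned counts and leaving out each library.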

Additional observations from a re-analysis of the deposited data

How the results depend on the processing

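Each of the 10 genes kept its direction and stayed uncalled under the 12 alternatives, with 3 exceptions in 120 values. Il12rb1 turned to -0.0414 without S303/7A 5 (-0.0414 to 0.1782 over the fits that left out 1 library), Stat4 to -0.01 without WT 3 (-0.01 to 0.085), and Ifngr2 was called in DESeq2 (log2 fold -1.05). The members called were thus 1 in DESeq2 and 0 in every other alternative, the fits that each left out a library included. The 60 genes called over the whole table became 437 in DESeq2, 171 without the filter on low counts and 38 in limma-voom, and 5 to 57 when a library was left out, the fewest without WT 2; the counts were 31 without S303/7A 5, 30 without S303/7A 7, and 27, 5 and 21 without WT 1, 2 and 3. The cause of these changes was not tested, beyond fewer libraries in the last and more genes tested without the filter. In the lists, 8 of 84 counts of called genes and 3 of 84 medians moved; 5 of the 8 are the loss of Il15. No paired analysis was possible because the genotypes share no replicate number. Depth differed with genotype; with counts thinned to the smallest total, Ifngr2 had a log2 fold of -1.07 and an adjusted p of 0.295 in edgeR.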
